A study of Mus musculus with 2 samples.

Results

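The genes examined were 10 genes that mark cytotoxic lymphocytes or the CD8 lineage: *Gzma*, *Gzmb*, *Prf1*, *Nkg7*, *Ccl5*, *Cd8a*, *Cd8b1*, *Klrd1*, *Eomes* and *Ctsw*. They were chosen by name from 23282 rows of gene symbols, with earlier results of these libraries known, and all 10 were found in the table. Naïve CD4+ T cells from spleens of wild-type female C57BL/6 mice aged 7 to 10 weeks were activated with antibodies to CD3ε and CD28. They were cultured for 1 day toward the Treg fate, with TGF-β1, IL-2 and antibodies that block IFN-γ and IL-4. Control cells received DMSO, the solvent, and treated cells received 10 μM Tubastatin A, an HDAC6 inhibitor that is abbreviated as TSA here and is not Trichostatin A. There was 1 library per condition, so no difference given below has a replicate check. The starting cells were isolated with a naïve CD4+ T cell kit, and the purity that it reached is not given in the sources used here.

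Cytotoxic lymphocytes kill by releasing granules that hold perforin, which opens the target's membrane, and granzymes, which are proteases that enter through it. CD8+ T cells and NK cells are the main carriers of this machinery, and the T-box factors T-bet and Eomes and the factor Runx3 drive it. CD4+ T cells, to which induced Treg cells belong, carry CD4 in place of the CD8 co-receptor under the factor ThPOK, encoded by *Zbtb7b*. Some CD4+ T cells and Treg cells can acquire granzymes after activation.

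Of the 10 genes, 8 had at least 10 reads in at least 1 library and are called tested, that is, compared with a 2-fold threshold. None of these 8 was past it. The threshold of 2-fold was applied to the difference of the deposited log2 values. Among all 12164 genes with that many reads, 14.7% were past 2-fold, with 11.5% higher and 3.15% lower in TSA-treated cells. *Ctsw* and *Nkg7* held most of the signal, 91.9% of the reads of the 10 genes in control cells and 91.2% in TSA-treated cells. Of the perforin and granzyme genes, *Prf1* had no read in either library, *Gzma* had 1 read in control cells and none in TSA-treated cells, and *Gzmb* was low, with 18 and 9 reads. The co-receptor genes *Cd8a* and *Cd8b1* were present at a small fraction of the level of *Cd4*.

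QuantSeq libraries read each transcript from its 3′ end, so the count does not grow with transcript length and levels of different genes are set side by side as CPM, reads divided by the library's total of reads on genes and scaled to 1e6. The control library held 10846152 reads and the TSA library 10432615. A floor of 3 reads was set for a count of 0, a CPM of 0.277 in control cells and 0.288 in TSA-treated cells. The exact Poisson 95% interval of 0 reads reached slightly higher, to a CPM of 0.340 and 0.354. Defining genes of CD4+ T cells were well covered in both libraries. *Cd4* had a CPM of 224 in control cells and 244 in TSA-treated cells, and *Cd3e*, a chain of the T cell receptor complex, had 144 and 130. *Foxp3*, the Treg lineage factor, had 151 in control cells and 92.5 in TSA-treated cells. Each 95% interval below was computed from reads alone and, with 1 library per condition, covers counting error only. Copies made by PCR could not be told apart from separate molecules, so the intervals may be too narrow even for that.

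The promoters of 4 of the 6 genes with a promoter sequence are shown. Their levels run from *Nkg7* with many reads, through *Gzmb* with few, to *Gzma* and *Prf1* with none or 1. *Ctsw*, which had more reads than *Nkg7*, had no promoter sequence. Those of *Cd8a* and *Eomes* held neither of the cores marked below and are not printed. Each sequence covers 250 bases before and 50 bases after the start of the RefSeq transcript in GRCm38.p6, written 5′ to 3′ along the gene's strand. Capitals mark a T-box core (TCACACC, or GGTGTGA on the other strand) or a RUNX core (TGTGGT, or ACCACA on the other strand).
*Nkg7*, chr7:43436888-43437187, plus strand: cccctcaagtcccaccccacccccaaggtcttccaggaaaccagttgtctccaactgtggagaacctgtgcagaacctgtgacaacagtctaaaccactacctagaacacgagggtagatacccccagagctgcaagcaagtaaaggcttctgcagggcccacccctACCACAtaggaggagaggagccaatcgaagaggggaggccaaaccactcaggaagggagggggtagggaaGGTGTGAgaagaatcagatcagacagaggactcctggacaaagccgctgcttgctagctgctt
*Gzmb*, chr14:56262285-56262584, minus strand: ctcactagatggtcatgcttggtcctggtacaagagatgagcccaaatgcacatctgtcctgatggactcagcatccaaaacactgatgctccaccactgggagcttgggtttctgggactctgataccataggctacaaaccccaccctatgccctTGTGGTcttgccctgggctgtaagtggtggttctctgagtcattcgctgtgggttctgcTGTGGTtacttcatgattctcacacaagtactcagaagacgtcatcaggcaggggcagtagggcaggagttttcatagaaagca
*Gzma*, chr13:113100932-113101231, minus strand: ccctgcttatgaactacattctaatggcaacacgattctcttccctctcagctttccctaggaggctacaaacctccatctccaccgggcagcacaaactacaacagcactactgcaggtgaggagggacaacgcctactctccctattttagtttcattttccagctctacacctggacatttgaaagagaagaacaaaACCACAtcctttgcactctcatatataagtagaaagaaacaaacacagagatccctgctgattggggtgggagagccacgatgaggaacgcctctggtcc
*Prf1*, chr10:61297586-61297885, plus strand: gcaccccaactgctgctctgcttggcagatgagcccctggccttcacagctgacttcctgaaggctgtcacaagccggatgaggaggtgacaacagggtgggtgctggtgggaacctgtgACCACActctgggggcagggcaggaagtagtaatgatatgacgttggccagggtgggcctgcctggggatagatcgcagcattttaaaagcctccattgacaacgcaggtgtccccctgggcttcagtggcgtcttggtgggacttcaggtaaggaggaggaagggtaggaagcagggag

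A promoter sequence was found for 6 of the 10 genes, namely these 4 with *Cd8a* and *Eomes*. The RUNX core was found in the promoters of *Nkg7*, *Gzmb*, *Gzma* and *Prf1*, with 2 matches in *Gzmb* and 1 in each of the others, and it was not found in those of *Cd8a* and *Eomes*. The same core is held by 16.8% of 32817 mouse promoters of this length. The T-box core was found in *Nkg7* alone among the 6, against 3.98% of all promoters. An AP-1 core (TGANTCA) was found in *Gzmb* alone, against 7.81% of all promoters. The TATA core (TATAAA, held by 13.6% of all promoters), the GC box (GGGCGG, 35.6%) and the NF-κB motif (1.63%) were found in none of the 6. For TATA only this exact string was searched, so a TATA box of another form could be present. Both strands were searched for each core, and no match overlapped another. *Gzma*, *Gzmb*, *Prf1* and *Nkg7* thus shared a RUNX core while their levels ran from no read to a CPM of 99.97, so the match did not separate genes with reads from genes without. GC content was 47.7% for *Gzma*, 51.0% for *Gzmb*, 58.7% for *Prf1*, 55.7% for *Nkg7*, 46.7% for *Cd8a* and 47.3% for *Eomes*, around a median of 52.7% over all promoters.

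**Figure D1:**
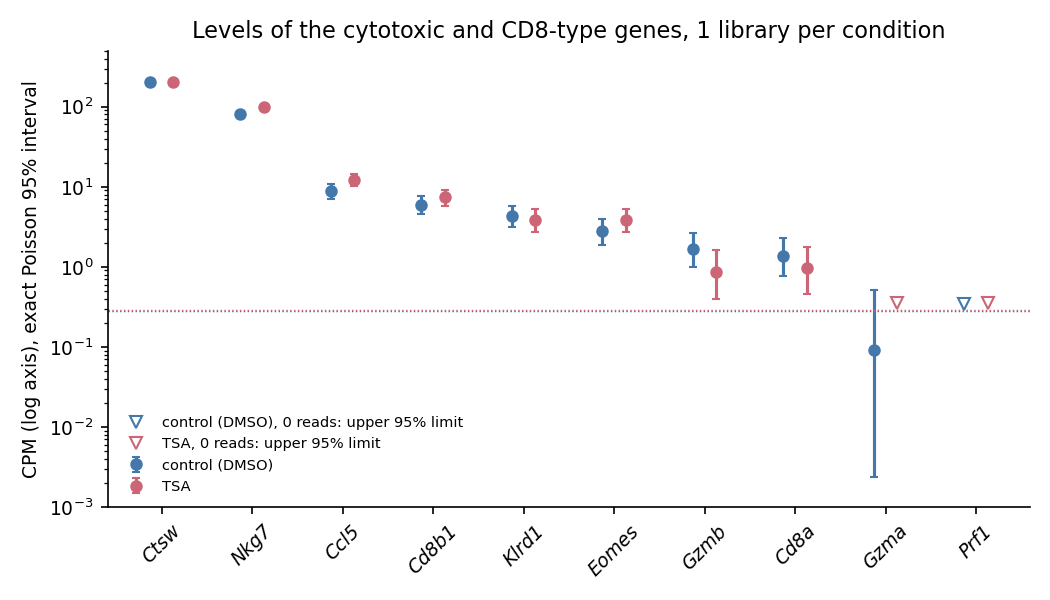
Level of each of the 10 genes as CPM on a log axis in the control (DMSO) and TSA library, with exact Poisson 95% intervals; open triangles mark the upper limit for 0 reads and dotted lines the CPM of 3 reads. The levels run from a CPM of 202 and 203 for *Ctsw* to no read for *Prf1*, and the intervals of the libraries overlap for every gene except *Nkg7*.

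Among the granule genes, the granzyme genes were low. *Gzmb*, which encodes the granzyme that cleaves caspases, had 18 reads in control cells (a CPM of 1.66) and 9 in TSA-treated cells (0.863). The deposited log2 values differed by -0.94, short of 2-fold. The ratio of normalised counts, without the 1 count that the deposited scale adds, was 0.495, with a 95% interval of 0.196 to 1.16 that included no change. *Gzmb* was thus the gene with the largest difference among the 8, but it rested on few reads, and the side of the 2-fold line on which it fell depended on the added count. *Gzma*, which encodes a tryptase of the same granules, had 1 and 0 reads, and *Prf1*, which encodes perforin, had 0 and 0. Both genes were at or under the floor of 3 reads, and a fold change would have no meaning there.

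The granzyme family had 10 rows, and 7 of them were at 0 in both libraries. *Gzmb* held 90.0% of the family's 20 reads in control cells and 56.25% of its 16 reads in TSA-treated cells. Besides *Gzmb* and *Gzma*, reads were found for *Gzmm*, named after its values were seen, with 1 read in control cells and 7 in TSA-treated cells. Its ratio was 6.93 with a 95% interval of 0.890 to 312, and it had too few reads to be tested. The genes *Gzmc*, *Gzmd*, *Gzme*, *Gzmf*, *Gzmg*, *Gzmk* and *Gzmn* had no read in either library.

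*Nkg7* and *Ctsw* had far more reads than the granzyme genes and *Prf1*. *Nkg7*, which encodes a membrane protein of cytotoxic granules needed for their release, had 889 reads in control cells (a CPM of 82.0) and 1043 in TSA-treated cells (99.97). The log2 difference was 0.22 and the ratio 1.16 (95% interval 1.06 to 1.27), a difference beyond counting error and far from 2-fold. It lay above 89.2% of all rows in control cells and above 91.3% in TSA-treated cells. *Ctsw*, which encodes cathepsin W, a papain-like protease of CD8+ T and NK cells, was the highest of the 10 genes, with 2189 reads (a CPM of 202) in control cells and 2122 (203) in TSA-treated cells. The log2 difference was -0.059 and the ratio 0.960 (0.904 to 1.02), so the interval included no change, and the sign turned, at 0.011, under scaling by total reads and, at 0.026, under the same scaling without *Rn45s*. Because the deposited values have 3 decimals, the reads of *Ctsw* are known to within 1 read.

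The reads of *Ctsw* carry a limit of position. In GENCODE M21 on GRCm38 the gene lies on chromosome 19 from 5465043 to 5468507 on the minus strand, and it overlaps *Fibp*, a gene on the plus strand, at its 3′ end. It is not stated that the reads were counted by strand, so reads of the 2 genes cannot be told apart there. *Fibp* had its own 240 reads in control cells and 253 in TSA-treated cells. *Ctsw* was the highest of 22 cathepsin rows in both libraries and held 31.1% and 29.6% of the reads of that family. In the same family *Ctsc*, which encodes the protease that activates granzymes, had 1067 and 927 reads, a ratio of 0.860 (0.787 to 0.940). None of the 10 cathepsin genes with enough reads was past 2-fold, against 14.7% of all genes tested. *Nkg7* lies on chromosome 7 from 43437073 to 43438249 and overlaps no annotated gene.

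*Ccl5*, which encodes the chemokine RANTES that memory and effector CD8+ T cells store, had 95 reads in control cells (a CPM of 8.76) and 128 in TSA-treated cells (12.3). The log2 difference was 0.41 and the ratio 1.33, with a 95% interval of 1.02 to 1.76 that only just excluded no change. Among the 24 CC chemokine rows *Ccl5* had rank 4 in both libraries. It came below *Ccl4*, with 1625 and 1501 reads, *Ccl3*, with 438 and 237, and *Ccl1*, with 271 and 313. *Ccl3*, which encodes the inflammatory chemokine MIP-1α, was lower in TSA-treated cells at a ratio of 0.536 (0.456 to 0.629), opposite in sign to *Ccl5*. Of 8 CC chemokine genes with enough reads 1 was past 2-fold, beside 14.7% of all genes tested. It was *Ccl25*, named after its values were seen, with 43 and 13 reads and a ratio of 0.299 (0.148 to 0.567).

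The co-receptor genes had few reads, and neither differed between the libraries beyond counting error. *Cd8b1*, which encodes the β chain of CD8, had 65 reads in control cells (a CPM of 5.99) and 77 in TSA-treated cells (7.38). The log2 difference was 0.23 and the ratio 1.17 (0.832 to 1.66). *Cd8a*, which encodes the α chain, had 15 reads (1.38) and 10 reads (0.959), a log2 difference of -0.55 and a ratio of 0.660 (0.265 to 1.57). Both intervals included no change and overlapped each other. *Cd8b1* had more reads than *Cd8a* in each library, 4.33 times as many in control cells (95% interval 2.44 to 8.18) and 7.70 times as many in TSA-treated cells (3.97 to 16.7). The genes lie near each other on chromosome 6, *Cd8b1* from 71322788 to 71337494 and *Cd8a* from 71373427 to 71379173, both on the plus strand and 35933 bases apart.

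Set against the CD4 co-receptor, the CD8 genes were minor. For each 100 reads of *Cd4* there were 0.616 reads of *Cd8a* in control cells (95% interval 0.344 to 1.02) and 0.392 in TSA-treated cells (0.188 to 0.723). The same figure for *Cd8b1* was 2.67 (2.05 to 3.42) and 3.02 (2.38 to 3.79). For both genes the intervals of the libraries overlapped. In bulk RNA a small number of CD8+ T cells and a low level in many cells cannot be told apart, and likewise fewer cells of a type and less RNA per cell.

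*Klrd1*, which encodes CD94, the partner chain of the NKG2 receptors of NK cells and activated CD8+ T cells, had 47 reads in control cells (a CPM of 4.33) and 40 in TSA-treated cells (3.83). The log2 difference was -0.24 and the ratio 0.843 (0.539 to 1.31). *Klrc1*, which encodes NKG2A, an inhibitory partner of CD94, was also lower in TSA-treated cells, with 31 and 20 reads and a ratio of 0.639 (0.345 to 1.16). Both intervals included no change. *Klrk1*, which encodes the activating receptor NKG2D, had 3 and 5 reads. *Klrd1* had the most reads of the 33 killer-cell lectin-like receptor rows in both libraries, 46.1% and 36.0% of the family. Of these 33 rows, 3 had enough reads and 1 was higher past 2-fold, beside 11.5% of all genes tested. This gene was *Klra10*, named after its values were seen, with 0 reads in control cells and 15 in TSA-treated cells. The lower 95% limit of its ratio was 3.55. *Klra10* had enough reads to be tested in the TSA library alone. The filter thus favoured that direction, and the count is not read as a result. The *Klra* genes are closely related in sequence, so their reads may be split between them.

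*Eomes*, which encodes the T-box factor of memory CD8+ T and NK cells, had 30 reads in control cells (a CPM of 2.77) and 40 in TSA-treated cells (3.83). The log2 difference was 0.39 and the ratio 1.32 (0.802 to 2.20), an interval that included no change. *Gm33460*, an annotated gene on the other strand, overlaps its 3′ end on chromosome 9 and was not analysed here. *Tbx21*, which encodes T-bet, the related factor of Th1 and effector CD8+ T cells, was far higher, with 1974 reads (a CPM of 182) and 2394 (229), a ratio of 1.20 (1.13 to 1.28). For each 100 reads of *Tbx21* there were 1.52 reads of *Eomes* in control cells (1.02 to 2.18) and 1.67 in TSA-treated cells (1.19 to 2.28). Of 16 T-box rows, 5 had enough reads and 3 of these were past 2-fold, all higher. They are named after their values were seen, and 11.5% of all genes tested were higher past 2-fold. Each of the 3 reached 10 reads in the TSA library alone. The filter thus favoured that direction, and the count is not read as a result. *Tbx5* had 0 and 26 reads, with a lower 95% limit of the ratio of 6.496, and *Tbx3* had 0 and 19, with a lower limit of 4.62. *Tbx1* had 3 and 15 reads, a ratio of 4.95 (1.40 to 26.7). Across the whole table, 285 genes had no read in control cells and at least 10 in TSA-treated cells, and 17 genes the reverse. None of the 10 cytotoxic and CD8-type genes was among either.

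**Figure D2:**
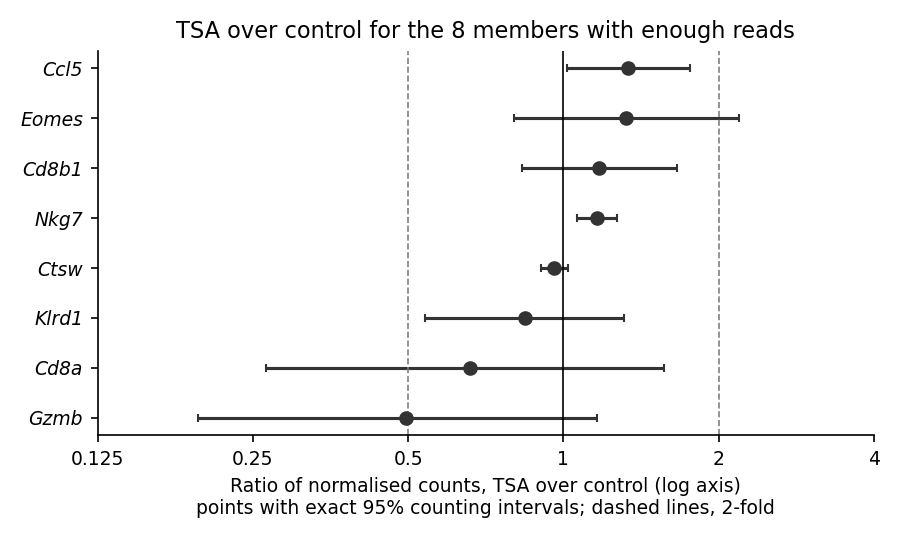
Ratio of normalised counts, TSA over control, on a log axis for the 8 genes with enough reads, with exact 95% counting intervals; dashed lines mark 2-fold and the solid line no change. The intervals of *Nkg7* (1.06 to 1.27) and *Ccl5* (1.02 to 1.76) lie above 1 and the other 6 include it.

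Over the 8 genes, 4 were higher and 4 lower in TSA-treated cells by any size, against 51.3% higher and 48.6% lower among all genes tested. Their median log2 difference was 0.079, against 0.015 over all genes tested, and their median absolute log2 difference was 0.32, against 0.31. The 95% counting interval excluded no change for 2 of the 8, *Nkg7* and *Ccl5*, and both were higher in TSA-treated cells. Among all genes tested it did so for 56.1%, with 28.1% higher and 28% lower. Since the genes were chosen with this contrast known, these figures describe them and test nothing. The 2 genes with the most reads, *Ctsw* and *Nkg7*, had the narrowest intervals and ratios of 0.960 and 1.16. Among 3962 genes with a mean normalised count of at least 500, the class to which both belong, 0.934% were past 2-fold. In that class the counting interval excluded no change for 69.3%, so an interval such as that of *Nkg7* was common there.

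The order of the levels was nearly the same in both libraries. It ran from *Ctsw* through *Nkg7*, *Ccl5*, *Cd8b1*, *Klrd1*, *Eomes*, *Gzmb* and *Cd8a* to *Gzma* and *Prf1* in control cells. In the TSA library *Klrd1* and *Eomes* were level at 40 reads each and *Cd8a* came before *Gzmb*. In the control library the neighbours from *Cd8b1* to *Cd8a* in that order did not differ beyond counting error, whereas *Nkg7*, *Ccl5* and *Cd8b1* were each below the gene before them by more than counting error in both libraries. In the TSA library *Cd8b1* was also above *Klrd1*, and *Eomes* above *Cd8a*, by more than counting error.

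**Figure D3:**
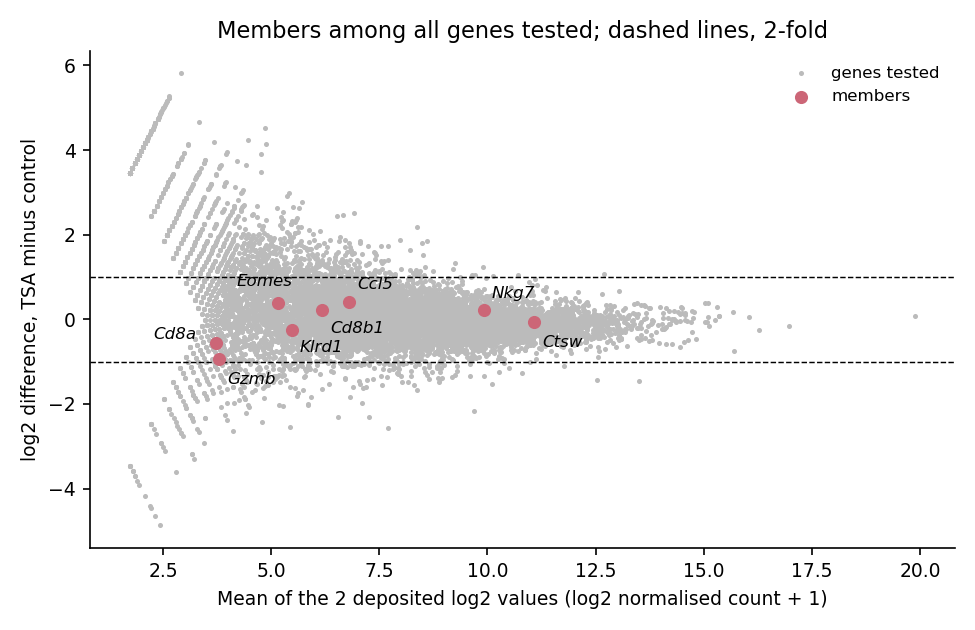
Difference of the deposited log2 values, TSA minus control, against their mean for the 12164 genes tested (grey) and the 8 members with enough reads (red); dashed lines mark 2-fold. All 8 members lie between the dashed lines, from -0.94 for *Gzmb* to 0.41 for *Ccl5*.

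Other genes of cytotoxic granules were examined as a list of 24, of which 15 were tested. None was past 2-fold, against 14.7% of all genes tested. By any size 9 were higher and 6 lower, against 51.3% and 48.6% of all genes tested. The median log2 difference was 0.13, against 0.015. *Srgn*, which encodes serglycin, the proteoglycan that packs granzymes, had 4316 reads in control cells and 5708 in TSA-treated cells, a ratio of 1.31 (1.26 to 1.36). *Cst7*, which encodes cystatin F, an inhibitor of granule cathepsins, had 66 and 113 reads, a ratio of 1.70 (1.24 to 2.33). *Rab27a*, which encodes the GTPase that docks granules, went the other way, with 566 and 373 reads and a ratio of 0.653 (0.571 to 0.745). These genes were named after their values were seen. *Vamp7*, a gene for membrane fusion that many cell types use, is in the same list and is listed at 0 in both libraries, as are *Prf1* and 7 of the 10 granzyme genes. A value of 0 therefore says only that no read was counted for that row.

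Of 36 NK cell receptor and adaptor genes, 35 were found, 12 were tested, and 19 had at most 3 reads in both libraries. *Slamf6*, which encodes a receptor of the SLAM family, had 41 reads in control cells and 105 in TSA-treated cells, a log2 difference of 1.32 and a ratio of 2.54 (1.75 to 3.73). *Cd226*, which encodes the activating receptor DNAM-1, had 160 and 80 reads, a log2 difference of -1.005 and a ratio of 0.495 (0.374 to 0.651). These were the 2 genes of the list past 2-fold, and *Cd226* was not past it with 3 of the 4 other scalings. Both are also found on CD4+ T cells. The median log2 difference of the 12 was -0.24, with 4 higher and 8 lower. Among all genes tested it was 0.015, with 51.3% higher and 48.6% lower.

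All 26 genes of a list of CD4 and CD8 lineage and memory regulators were tested. Of these, 20 were higher and 6 lower by any size, against 51.3% higher and 48.6% lower among all genes tested. Their median log2 difference was 0.16, against 0.015 over all genes tested. The factors that set the lineage were far within 2-fold. *Runx3*, which directs the CD8 fate, had 2578 and 2912 reads, a ratio of 1.12 (1.06 to 1.18), and *Zbtb7b*, which directs the CD4 fate, had 278 and 300, a ratio of 1.07 (0.905 to 1.26). *Cd4* had 2434 and 2549 reads, a ratio of 1.04 (0.981 to 1.10). Past 2-fold were *Zeb2*, a repressor found in terminal effector CD8+ T cells, with 13 and 43 reads and a ratio of 3.28 (1.73 to 6.64), and *Itgae*, which encodes CD103, the integrin of tissue-resident CD8+ T cells and of some Treg cells, with 17 and 39 reads and a ratio of 2.27 (1.26 to 4.28). Both were higher in TSA-treated cells.

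Of 18 chemokine, cytokine and receptor genes of cytotoxic cells, 14 were tested and 2 were past 2-fold. *Cx3cr1*, which encodes the receptor of effector cells for fractalkine, had 24 and 57 reads, a ratio of 2.35 (1.44 to 3.96). *Ccr2*, which encodes a receptor for CCL2, had 4 and 12 reads, a ratio of 2.97 with an interval of 0.900 to 12.6 that included no change. The median log2 difference of the 14 was -0.18. Of 6 death ligand and receptor genes, *Fasl*, which encodes the ligand that kills through Fas, was past 2-fold, with 17 reads in control cells and 38 in TSA-treated cells and a ratio of 2.21 (1.22 to 4.18), and the median was 0.31. Among all genes tested 14.7% were past 2-fold, and no list is called particular from these counts.

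**Figure D4:**
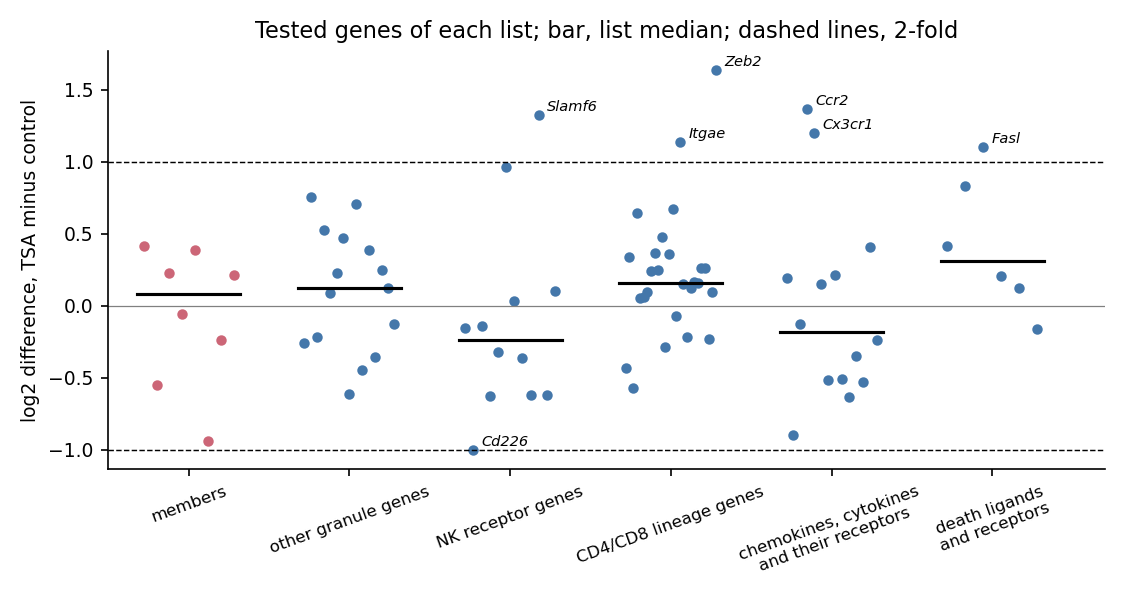
Difference of the deposited log2 values, TSA minus control, for each tested gene of the members and of 5 lists of related genes; bars mark list medians and dashed lines 2-fold. The 7 genes past 2-fold are labelled, and none is a member.

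Markers of other cell types were summed in each library, because the 10 genes are typical of cells that an isolation of naïve CD4+ T cells is meant to remove. The 2 CD8 genes together had a CPM of 7.38 in control cells (95% interval 5.85 to 9.18) and 8.34 in TSA-treated cells (6.68 to 10.3). Of 7 NK cell markers, 5 were at 0 in control cells and 3 in TSA-treated cells, and their sum was a CPM of 6.73 (5.28 to 8.46) and 6.23 (4.81 to 7.94). The defining markers of NK cells had few or no reads, while *Klrd1* (47 and 40 reads) and *Klrc1* (31 and 20), which NK cells also carry, had more. *Ncr1*, which encodes NKp46, had 0 and 1 reads, and *Klrb1c*, which encodes NK1.1, had none in either library. The NK sum came almost wholly from *Fcer1g*, with 62 and 50 reads, and *Tyrobp*, with 11 and 12, adaptors that myeloid cells also use. For γδ T cells the 2 markers found, *Sox13* and *Blk*, had 9 reads in control cells and 14 in TSA-treated cells, and *Trdc* was not analysed here. *Zbtb16*, the factor of NKT and other innate-like T cells, had 3 and 2 reads.

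B cell markers were also low, with a summed CPM of 1.20 (0.638 to 2.05) in control cells and 2.59 (1.71 to 3.77) in TSA-treated cells over 6 genes. Its genes differed in direction. *Cd79a* and *Cd79b*, the signalling chains of the B cell receptor, had 1 and 5 reads and 11 and 4 reads, and *Ebf1*, a B lineage factor, had 1 and 12. The 6 myeloid markers summed to 5.53 (4.22 to 7.12) and 4.22 (3.06 to 5.66), with 6 and 10 reads of *Lyz2* and 9 and 2 of *Csf1r*. The 5 dendritic cell markers had a sum of 1.38 (0.774 to 2.28) in control cells and 4.79 (3.56 to 6.32) in TSA-treated cells, of which *Flt3* gave 0 and 33 reads. In the same list *Zbtb46* had 2 and 11 reads, *Itgax* 4 and 0, and *Xcr1* 9 and 6. The intervals of the ratio of CPM excluded no change for the B cell list (1.08 to 4.56) and the dendritic cell list (1.91 to 6.64). Both ratios depended on single genes. Without *Ebf1* the B cell interval was 0.568 to 3.04, without *Ms4a1* 0.848 to 3.80 and without *Cd79a* 0.903 to 4.23, and without *Flt3* the dendritic cell interval was 0.554 to 2.53, all of which include no change. In the other direction, the B cell ratio was 2.16 with all its genes and 11.96 (2.95 to 104.6) without *Cd79b*, and the dendritic cell ratio was 3.47 with all its genes and 7.62 (3.24 to 21.9) without *Xcr1*. Erythroid markers summed to 3.87 and 5.18 and platelet markers to 2.40 and 3.35. The 4 T cell markers found summed to 764 and 850, and the 3 CD4+ T cell markers to 272 and 304. Their ratios of CPM were 1.11 (1.08 to 1.15) and 1.12 (1.06 to 1.17), so these intervals also excluded no change. Without *Cd3d* the T cell interval was 0.997 to 1.08, which includes it. The summed CPM of the CD8, NK and myeloid lists differed by less than counting error between the libraries, as did *Cd8a*, *Cd8b1*, *Klrd1*, *Eomes* and *Gzmb*. The part of a few admixed cells, and of transcription in the CD4+ T cells themselves, in the levels of *Ctsw*, *Nkg7* and *Ccl5* was not tested.

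**Figure D5:**
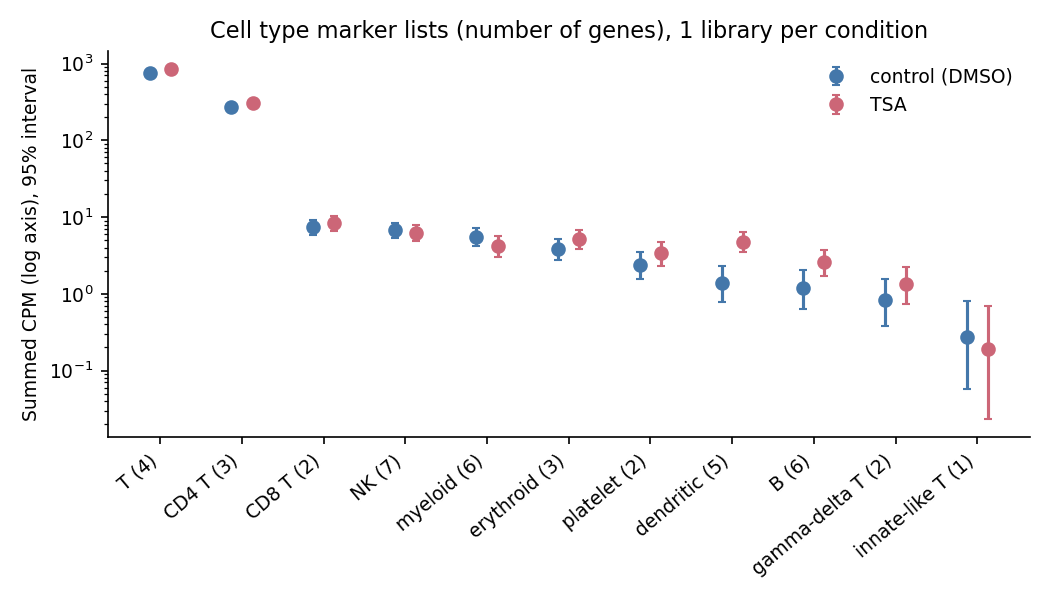
Summed CPM on a log axis of each cell type marker list in the control (DMSO) and TSA library, with exact Poisson 95% intervals; the number of genes is given in brackets. The CD4 T and general T cell lists lie between 272 and 850, and the other lists are below 10.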

How the data were processed

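RNA from 1 DMSO-treated and 1 TSA-treated culture of T cells was measured, and the samples were grouped by their treatment labels. The authors sequenced QuantSeq 3′ libraries as single-end reads of 75 bases and analysed them with ExDEGA, and the submitters' processing notes name mm10, Bowtie2 and bedtools. The deposited values are log2 of a normalized count plus 1. The annotation, the counting rule and the scaling are not given in the sources used here. One read was worth 1.00496 normalized counts in control cells and 0.99511 in treated cells, found from the spacing of low values. At 1 to 300 reads, 99.95% and 99.94% of them lay within 0.1 of a whole number, which gave the reads. Small values above 0 in 1940 control rows were taken as 0 reads.

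The log2 difference is the TSA value minus the control value. Genes that reached 10 reads in either library are called tested, that is, compared with the 2-fold threshold of the study. With 1 library per condition no p-value was computed. Intervals are exact Clopper-Pearson (ratios) or Poisson (levels) intervals at 95%. Steps were tested on simulated data. The members, lists, families and motifs were chosen with earlier results of these data known. Beside the members, lineage factors and defining markers, the genes named were those of each list with the largest differences past 2-fold, up to 4 in each direction. All other genes were named after their values were seen, and 1 defining marker is not reported here. Positions came from GENCODE M21 and promoters from RefSeq GRCm38.p6, both of the build mm10. Alternatives covered scaling, added count, filter and threshold. Leaving out each gene of a marker list in turn was added after seeing the data. Calculations used scipy 1.17.1 with numpy 2.4.6 and pandas 2.3.3 under Python 3.11.15, and plots used matplotlib 3.10.9.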

Additional observations from a re-analysis of the deposited data

How the results depend on the processing

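No paired analysis was possible because each condition had a single library, so leaving out replicates was not possible either. Of 267 alternative values, 216 kept their side of the threshold or lay within the counting spread and 51 moved. Each of the 8 tested members kept its sign under all scalings and added counts tried except *Ctsw*, which ranged from -0.06 to 0.03 on the log2 scale. Scaling by total reads, by total reads without *Rn45s* or by the upper quartile gave 2 NK receptor genes higher and 0 lower past 2-fold, in place of 1 and 1. These scalings shifted the median of all genes by at most 0.08 on the log2 scale.

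With an added count of 0.1, 1 member (*Gzmb*) was past 2-fold and lower, in place of 0. With an added count of 5, 0 NK receptor genes were lower, and 1 lineage gene, 1 chemokine and cytokine gene and 0 death ligand genes were higher. With no filter on reads, 1 member was lower (*Gzma*, on 1 read), the median of the members was -0.0295, 1 granule gene was higher with a list median of 0, 4 NK receptor genes were higher and 3 lower with a list median of 0, and 4 chemokine and cytokine genes were higher and 1 lower. All genes then gave 2817 higher and 1200 lower, in place of 1400 and 383. With at least 10 reads in both libraries, the median of the members was 0.22, 1 chemokine and cytokine gene was higher, and all genes gave 524 higher and 223 lower. When a mean of 50 normalized counts was required, the median of the members was 0.22, 0 lineage, chemokine and cytokine or death ligand genes were higher, the chemokine and cytokine median was -0.29, the death ligand median was 0.21, and all genes gave 278 higher and 141 lower.

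At 1.5-fold, 1 member (*Gzmb*) was lower, 2 granule genes were higher and 1 lower, 2 NK receptor genes were higher and 4 lower, 4 lineage genes were higher, 2 chemokine and cytokine genes were lower, 2 death ligand genes were higher, and all genes gave 2279 higher and 1014 lower. With the whole counting interval beyond 2-fold, 0 NK receptor, lineage, chemokine and cytokine or death ligand genes were past it in either direction, and all genes gave 604 higher and 99 lower. Fewer or more genes tested is part of the filters' construction, and for the rest the cause was not tested. *Gzma* and *Prf1* could not be compared at 3 reads or fewer, and the reason for their few reads was not tested.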
